A study of Mus musculus with 2 samples.

Results

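This account covers 10 regulators of blood vessel growth that lie outside the VEGF family: the Tie2 ligands Angpt1 and Angpt2, the related secreted protein Angptl4, the matrix inhibitors Thbs1 and Thbs2, the platelet-derived growth factor chains Pdgfa and Pdgfb, the endothelin precursor Edn1, and the growth factor Hgf with its receptor Met. They were taken by name, and every probe set that the platform annotation gives to exactly 1 of them was used. That was 21 probe sets for 10 genes, out of 34958 probe sets for 18194 genes on the array. All 10 genes had a probe set, and 8 of them gave a fold or a bound.

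CD34-positive epithelial cells were sorted from skin tumours of a wild-type mouse and of a K14CreER:Rosa-VEGF-164 mouse, with 1 Affymetrix Mouse Genome 430 2.0 array for each genotype. All animals received the carcinogen DMBA at postnatal days 23, 25 and 27, then the tumour promoter TPA every week, and further DMBA at 7 weeks of age. In the second genotype the keratin 14 promoter drives a Cre recombinase that is inducible, meant to switch on a VEGF-164 transgene at the Rosa locus in basal epithelium. The sources used here do not give the schedule of Cre induction or say whether animals or tumours were pooled. Sorting used CD34, α6-integrin and Epcam, with CD45, CD31 and CD140a stained in 1 shared colour.

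Vessel growth is steered by secreted factors that act mostly on endothelial cells and pericytes. Angiopoietins act through the endothelial receptor Tie2, PDGF-B draws pericytes to new vessels, and thrombospondins restrain endothelial growth through the receptors CD36 and CD47. Hepatocyte growth factor, usually made by mesenchyme, acts on the receptor Met of epithelial and endothelial cells. In a skin tumour the epithelial cells can send such signals and, through Met, also receive them.

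The deposited values are log2 signals, here printed anti-logged unless a log2 ratio is named. Every log2 ratio has the wild-type array as its denominator. With 1 array per genotype there is no replicate error, no test and no p-value, and genes were counted by size, at least 2-fold apart. Background was set from 80 probe sets for odorant and pheromone receptors, at their 90th percentile: 19.8 on the wild-type array, and 11.3 on that labelled VEGF. These genes were taken to be mostly silent in the sorted cells, which was not tested. A gene above background on only 1 array gets a lower bound, taken against the other array's background level. The only error at hand is the disagreement between probe sets of a gene, an SD of 0.50, 0.42 and 0.32 for a single log2 ratio in the lowest, middle and highest tertile of signal (1629 genes each). It holds neither the spread between animals nor labelling error common to a gene's probe sets.

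Across the array, 3.87% of 12199 genes with a fold or bound were 2-fold or more higher on the array labelled VEGF, and 8.53% were lower by as much. Higher genes made up 31.2% of the genes 2-fold apart as deposited, 51.1% after quantile and 53.5% after loess normalization. With an offset of 50 that follows matching of the array medians they made up 86.2%. Without any rescaling the share was 43.1% with the wild-type array's higher background used on both arrays, and 48.9% with a stricter signal filter. That common background left 3.87% of genes higher, and 5.12% rather than 8.53% lower. The split between higher and lower genes thus depends on the scaling, the background level and the signal filter. Matching the medians raises the array labelled VEGF by 0.39 on the log2 scale relative to the other. Adding 50 to both signals then shrinks ratios, most of all those of dim genes. Every ratio given below with the offset carries both the upward shift and this shrinkage. Vegfa, the gained gene, had a signal of 804 on the wild-type array, and 397 on that labelled VEGF, and its other probe set went the same way (302 and 127). The parts of the transcript these probe sets read, and so whether they see the transgene, are not known here, and Vegfa does not check the genotype label. The sort and basal genes Cd34, Itga6, Epcam, Krt5, Krt14, Trp63 and Cdh1 were above background on both arrays, 7 of 7. By their brightest probe sets 0 were 2-fold apart, but they were not all equal. Cd34 was 1.75-fold higher on the array labelled VEGF, and Itga6 was 1.63-fold and Trp63 1.71-fold lower. Epcam, Krt5, Krt14 and Cdh1 were at most 1.30-fold apart. In addition, 1 other probe set each of Trp63 (260 and 45.5) and Epcam (347 and 155) was more than 2-fold lower.

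Among the 8 measured regulators, 1, Met, was at least 2-fold higher on the array labelled VEGF (3.87% of all genes were), and 1, Angptl4, was lower by as much (8.53% of all genes). The other 6 were less than 2-fold apart by their brightest probe set. Angpt1 and Hgf gave no fold, being below background on the wild-type array. The median log2 ratio of the 8 was -0.32, against -0.04 for all genes. Of the 8, 6 lay below 0, as did 6451 of all 12199 genes with a fold or bound. After quantile normalization the members' median was -0.05, and with the offset of 50 it was 0.07. By probe set, 15 of the 21 gave a fold or bound, with 2 higher and 3 lower by 2-fold or more, where 3.53% and 10.3% of all 21526 probe sets were.

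**Figure D1:**
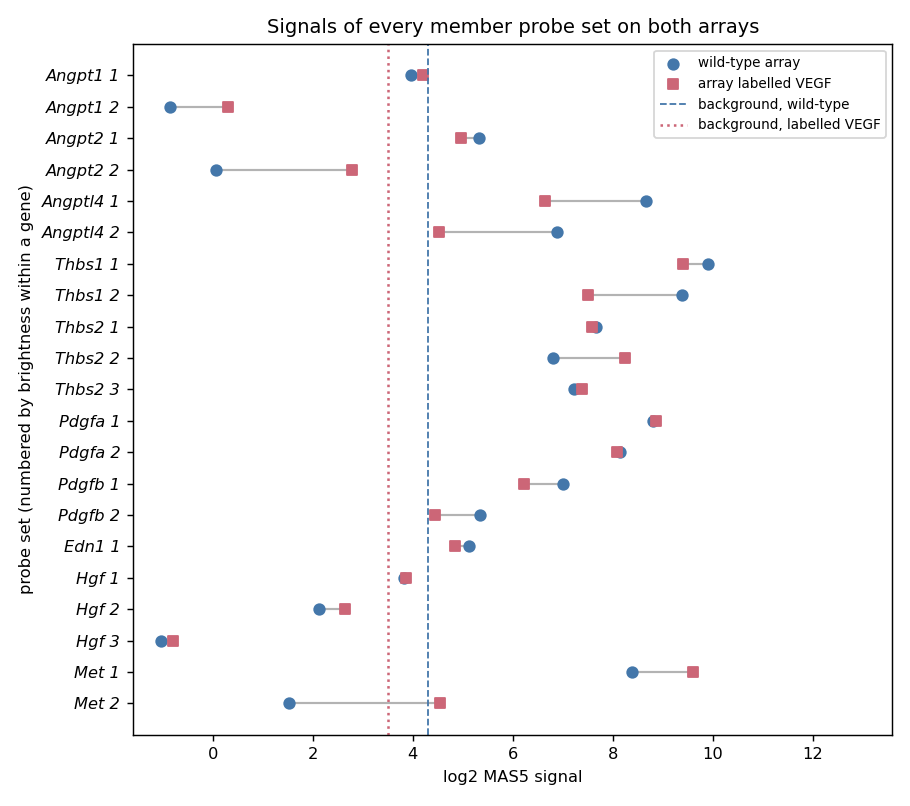
log2 MAS5 signal of all 21 probe sets of the 10 regulators on the wild-type array (circles) and the array labelled VEGF (squares), with each array's background level as a vertical line; probe sets of a gene are numbered from the brightest. The squares of both Angptl4 probe sets lie far to the left of their circles, those of both Met probe sets to the right, and Thbs1 and Thbs2 each have probe sets that differ in their shift.

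Angptl4, which encodes a secreted inhibitor of lipoprotein lipase, showed the largest ratio among the 8 measured regulators. Its brighter probe set, 1417130_s_at, had a signal of 405 on the wild-type array, and 100.2 on that labelled VEGF, 4.05-fold lower with a log2 ratio of -2.02. The second, 1453410_at, had 118 and 23.1, 5.10-fold lower with a log2 ratio of -2.35. Both probe sets were above background on both arrays, and their ratios differed by 0.33, where the SD of a single ratio at this signal is 0.42. A difference at least this large was found in 56.4% of the 2887 genes with 2 such probe sets. The ending _s_at marks a type that can bind several transcripts, and the second probe set is not of that type. Only 82 of the 12199 genes had a lower ratio. Fewer expressing cells and less RNA per cell cannot be told apart in sorted bulk RNA, here or for any gene below.

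The gene of the enzyme that Angptl4 inhibits was lower as well. Lpl, lipoprotein lipase, had a signal of 91.0 on the wild-type array, and 25.5 on that labelled VEGF, 3.58-fold lower. Its other probe set had 39.6 and 9.78, below background on the second array, and was at least 3.49-fold lower, or at least 1.99-fold with the higher background of 19.8 used on both arrays. Of the 9 alternative settings in which Lpl had a value, it was at least 2-fold lower in 8 and had a log2 ratio of -0.71 with the offset of 50.

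The angiopoietins, ligands of the endothelial receptor Tie2, were near or below background on both arrays. Angpt1, which activates Tie2 and steadies vessels, had signals of 15.6 and 18.4 on the wild-type array and the array labelled VEGF by its brighter probe set, and 0.552 and 1.23 by the other. The first pair lies below one background level and above the other, so no fold can be given. Angpt2, which can oppose Angpt1 at the same receptor, had 39.9 and 31.3 by its brighter probe set, a log2 ratio of -0.35 that became -0.05 after quantile normalization and 0.02 with the offset of 50. Its other probe set, at 1.04 and 6.89, was below background on both arrays. The receptor itself was not detected above background in these cells: Tek, which encodes Tie2, had signals of 13.2 and 9.90, and the related receptor gene Tie1 10.2 and 7.46. Of 7 further angiopoietin and Tie genes with a probe set, 2 gave a fold and 0 were 2-fold apart, although Angptl6, another angiopoietin-like gene, came close (38.5 and 19.4, log2 ratio -0.99).

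Thbs1, which encodes the matrix protein thrombospondin-1, was lower by both of its probe sets but by very different amounts. The brighter, 1460302_at, had a signal of 956 on the wild-type array, and 676 on that labelled VEGF, a log2 ratio of -0.50. The other, 1450377_at, had 671 and 182, 3.69-fold lower with a log2 ratio of -1.88. Both were far above background on both arrays, and their ratios differed by 1.38, against an SD of 0.32 for a single ratio at this signal. A disagreement this large was found in 4.71% of the 2887 genes with 2 such probe sets. Thbs1 was under 2-fold by the brightest probe set and 2-fold lower by the median of both (log2 ratio -1.19).

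Thbs2, the gene of the related inhibitor thrombospondin-2, had 3 probe sets above background that did not go the same way. The brightest, 1447862_x_at, had signals of 203 and 193 on the wild-type array and the array labelled VEGF, a log2 ratio of -0.07. A further one, 1450663_at, had 149 and 168, a log2 ratio of 0.17. Only 1422571_at stood apart, with 113 and 304, 2.70-fold higher and a log2 ratio of 1.43. The range over the 3 was 1.51, and 7.83% of the 1213 genes with 3 such probe sets had a range as large. The ending _x_at marks probes that may bind other transcripts, and without such probe sets 1422571_at stands for Thbs2, which then counts as 2-fold higher. No single direction can be given for Thbs2.

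Of the thrombospondin receptors, Cd47, an integrin-associated protein that is widely expressed, had signals of 422 and 534 on the wild-type array and the array labelled VEGF by its brightest probe set, a log2 ratio of 0.34. Its other probe sets with a fold lay between -0.55 and -0.05. Cd36, a scavenger receptor of endothelium, macrophages and fat cells, was below background on both arrays by all 3 probe sets, at most 17.3. The cartilage and matrix relatives Thbs3, Thbs4 and Comp gave no fold, so that of 5 further genes of this list 1 had a fold and 0 were 2-fold apart.

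**Figure D2:**
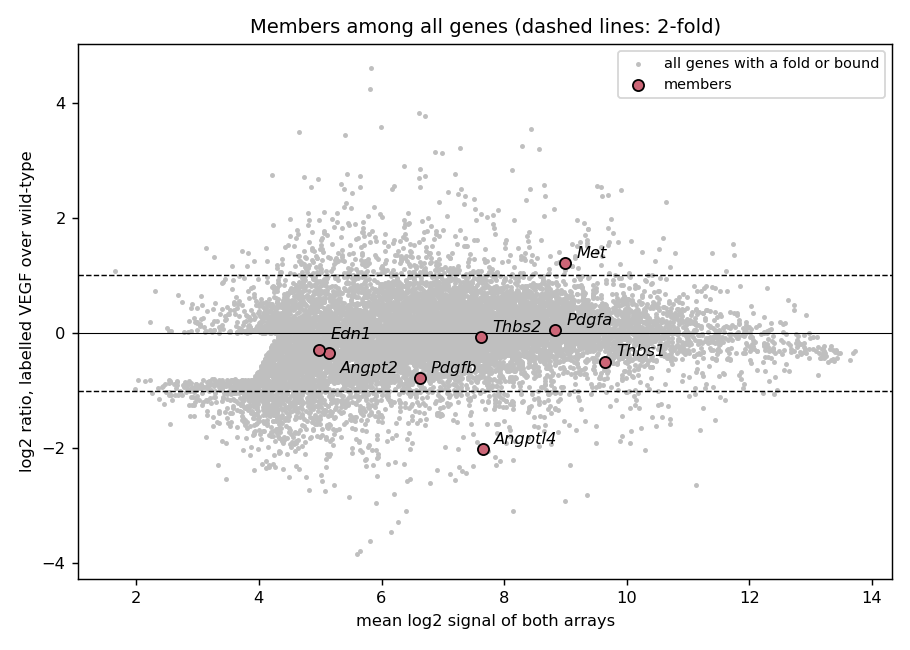
log2 ratio (labelled VEGF over wild-type) against mean log2 signal for the 12199 genes with a fold or bound (grey) and the 8 measured regulators (red); dashed lines mark 2-fold. Met lies above the upper line at 1.21 and Angptl4 below the lower line at -2.02, while the other 6 lie between the lines.

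The 2 chains of platelet-derived growth factor differed in their values. Pdgfa, whose product acts through PDGF receptor α on mesenchymal cells, had signals of 449 and 465 on the wild-type array and the array labelled VEGF by its brighter probe set and 283 and 273 by the other. These are log2 ratios of 0.05 and -0.05, both close to 0. Pdgfb, whose product draws pericytes through PDGF receptor β, had 129 and 75.1 by its brighter probe set and 40.4 and 21.9 by the other. Both Pdgfb values were lower on the array labelled VEGF, with log2 ratios of -0.78 and -0.89, short of 2-fold, where the SD at the brighter probe set's signal is 0.42. The Pdgfb ratio lay between -0.83 and -0.26 over the 10 alternative settings.

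A further ligand of the family was 2-fold apart. Pdgfc, which encodes a PDGF that is activated by proteolysis, had a signal of 286 on the wild-type array, and 106 on that labelled VEGF, 2.70-fold lower, and its second probe set had 203 and 53.5, a log2 ratio of -1.92. It stayed at least 2-fold lower in 9 of 10 alternative settings, the exception being the offset of 50 at -0.81. Of the 5 listed PDGF genes that are not among the 10 regulators, 3 gave a fold or bound; 0 were higher by 2-fold or more and 1, Pdgfc, was lower. Among the receptor genes, Pdgfrb had 36.8 and 34.9 (log2 ratio -0.07) by its brighter probe set. Pdgfra had 9.86 and 34.7 by its brightest probe set, a bound of at least 1.75-fold higher, against 13.7 and 10.7, and 10.2 and 12.3, by the others.

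Edn1, the precursor gene of the vasoconstrictor endothelin-1, is read by 1 probe set. It had signals of 35.1 on the wild-type array, and 28.7 on that labelled VEGF, a log2 ratio of -0.29 that was within the SD of 0.50 at low signal and became 0.03 after quantile normalization. The other 5 measured endothelin genes held 0 higher and 0 lower by 2-fold or more, with a median log2 ratio of -0.16. Ece1, the enzyme gene that releases active endothelin, had 412 and 369, and Edn2, a second endothelin gene, had 93.4 and 67.1. Ednrb, an endothelin receptor gene of melanocytes and endothelium, had 24.9 and 33.7 by its brightest probe set, a log2 ratio of 0.44.

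Met, the receptor tyrosine kinase of hepatocyte growth factor, was the 1 regulator at least 2-fold higher on the array labelled VEGF. Its brighter probe set, 1434447_at, had a signal of 337 on the wild-type array, and 780 on that labelled VEGF, 2.32-fold higher with a log2 ratio of 1.21, where the SD at this signal is 0.32. Met had the 311th highest ratio of the 12199 genes. The second probe set, 1422990_at, had 2.87 and 23.4, below background on the wild-type array, so that it gives a bound of at least 1.18-fold higher. Both probe sets were higher on the same array, but only the first was above background on both. The median of the ratio and the bound gave Met a log2 value of 0.72. This is itself a lower bound, so Met was not counted as 2-fold there but need not be under it.

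Its ligand gene was not seen above the wild-type background. Hgf had signals of 14.2 and 14.6 on the wild-type array and the array labelled VEGF by its brightest probe set, 4.33 and 6.27 by the second and 0.487 and 0.578 by the third. No fold can be given, and at this signal a difference was not detectable. Of 9 further genes of the system, 8 gave a fold or bound, with 1 higher and 1 lower by 2-fold or more. Mst1, which encodes the ligand of the Met relative Ron, was 2.72-fold higher at low signal (24.8 and 67.6), while the gene of Ron, Mst1r, had 90.8 and 62.7. Hgfac, an activating protease gene of the ligand, was at least 2.52-fold lower (28.6 and 9.76), or a bound of -0.53 on the log2 scale with the background of 19.8 on both arrays. St14, the gene of the membrane protease matriptase, had 408 and 647 (log2 ratio 0.67), and Spint1, the gene of an inhibitor of matriptase, 153 and 288 (0.91). Spint2, the gene of a second such inhibitor, had 2841 and 2671 by its brightest probe set.

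**Figure D3:**
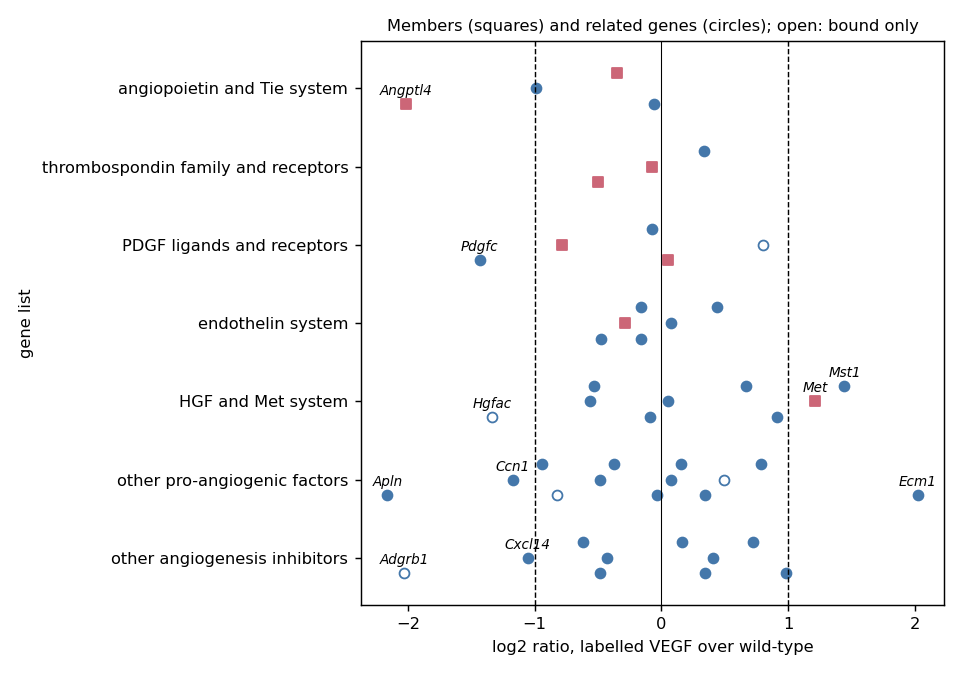
log2 ratio of the measured regulators (squares) and of related genes (circles) in each of 7 lists; open symbols are bounds, dashed lines mark 2-fold, and genes past them are named. Angptl4 and Apln lie furthest to the left among genes above background on both arrays and Ecm1 furthest to the right, with Met and Mst1 also past the line on the right.

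Other secreted angiogenic factors also went both ways. Of 15 listed factors, 13 gave a fold or bound, with 1 higher and 2 lower by 2-fold or more and a median log2 ratio of -0.04. Ecm1, the gene of a secreted skin matrix glycoprotein that can stimulate endothelial cells, had signals of 200.1 on the wild-type array, and 815 on that labelled VEGF, 4.07-fold higher, and was at least 2-fold higher in all 10 alternative settings. Apln, the gene of the peptide apelin that acts on an endothelial receptor, had 130 and 29.0, 4.47-fold lower. Its log2 ratio was -0.97 with the offset of 50, under 2-fold. Ccn1, a matricellular gene that responds to growth factors, had 1712 and 760 by its brightest probe set, 2.25-fold lower. The other Ccn1 probe sets lay between -2.05 and -0.31, the last of these standing for the gene once the less specific types are left out. Anxa2, which encodes a plasminogen-binding annexin, had 3790 and 4815 by its brightest probe set and 150 and 105 by the other above background, a log2 ratio of -0.51.

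Of 16 listed inhibitors besides the thrombospondins, 10 gave a fold or bound, with 0 higher and 2 lower by 2-fold or more and a median log2 ratio of -0.13. Adamts1 came close to 2-fold higher, with signals of 750 and 1483 (1.98-fold). Sparc had 1130 and 1869 by its brightest probe set, a log2 ratio of 0.73. Another Sparc probe set gave 1.14, and a dim one a bound of -1.81. Cxcl14, the gene of an epithelial chemokine, was 2.08-fold lower with signals of 607 and 292, and its other probe set gave a log2 ratio of -1.33. With the offset of 50 its log2 ratio was -0.59. Adgrb1, a receptor gene with thrombospondin repeats known mainly from brain, had 46.2 and 3.91 and was at least 4.08-fold lower, or a log2 bound of -1.22 with the background of 19.8 on both arrays. Serpinb5, the gene of maspin, had 1564 and 2080 by its brightest probe set, while its other probe sets lay between -0.55 and -0.41.

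Several of the regulators are made by cells other than epithelium, so markers of those cells are given beside them. Counts above background read from unequal floors, which 58.3% of all named probe sets passed on the wild-type array and 65.2% on that labelled VEGF, so counts with 19.8 on both arrays, a setting added after seeing the data, follow each. Of 15 endothelial markers, 7 and 12 were above background, or 7 and 8 with 19.8 on both, with summed signals of 345 and 435. Tek, Tie1 and Vwf were below background on both arrays. Pecam1 had 3.07 and 22.0, below background on the wild-type array, so that it gives a bound of only 1.11-fold higher. Cdh5, an endothelial cadherin gene, had 27.3 and 16.8, and Eng, the brightest of the list, 66.4 and 54.4. Mmrn2, an endothelial matrix gene, had 32.5 and 97.7, the largest rise in signal of the list. The sums also hold signals below background. Of 10 endothelial markers with a fold or bound, 1, Mmrn2, was 2-fold or more higher and 0 were lower by as much. Their median log2 ratio was 0.06, against -0.04 for all genes.

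Fibroblast markers were mostly higher on the array labelled VEGF, with a median log2 ratio of 0.80 against -0.04 for all genes. Of 9 with a probe set, 8 and 9 were above background, also with 19.8 on both, with summed signals of 2819 and 3576. The collagen genes Col1a2 (324 and 942) and Col3a1 (490 and 1235) were at least 2-fold higher on the array labelled VEGF. By their brightest probe sets Col1a1 (135 and 236), Lum (68.7 and 122) and Col6a1 (56.8 and 88.0) were higher by less. Pdgfra was higher as a bound. Postn, the brightest of the list, was 1.998-fold lower (1595 and 798), Dcn had 91.3 and 72.3, and Dpt 48.2 and 47.8. Of 11 pericyte and smooth muscle markers, 7 and 7 were above background, or 7 and 6 with 19.8 on both. They summed to 2341 and 1322, mostly from Acta2 (1621 and 755). The part of any of these cells in the values of Thbs1, Thbs2, Pdgfb, Met or Angptl4 was not tested.

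Platelets store thrombospondin-1 and PDGF. Of 7 platelet markers, 3 and 6 were above background, or 3 and 5 with 19.8 on both arrays, with summed signals of 168 and 615. Ppbp, a platelet chemokine gene, made up that difference (6.71 and 480), and the other 6 summed to 161 and 134, with Itga2b lower (69.3 and 39.4) and Pf4, a defining platelet gene, at 16.7 and 25.3. Of 6 melanocyte markers, 4 and 5 were above background, or 4 and 3 with 19.8 on both. They summed to 391 and 188, with Dct at 153 and 53.6 and Tyrp1 at 88.0 and 41.4, both 2-fold lower. Of 10 leukocyte markers with a probe set, 5 and 7 were above background, or 5 and 4 with 19.8 on both, and the list summed to 225 and 214. Cd68, the brightest of these, had 43.4 and 69.0, and the complement gene C1qb 33.3 and 15.1, 2-fold lower, or a log2 bound of -0.75 with 19.8 on both. The part of these cells in the values of the regulators was not tested either.

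**Figure D4:**
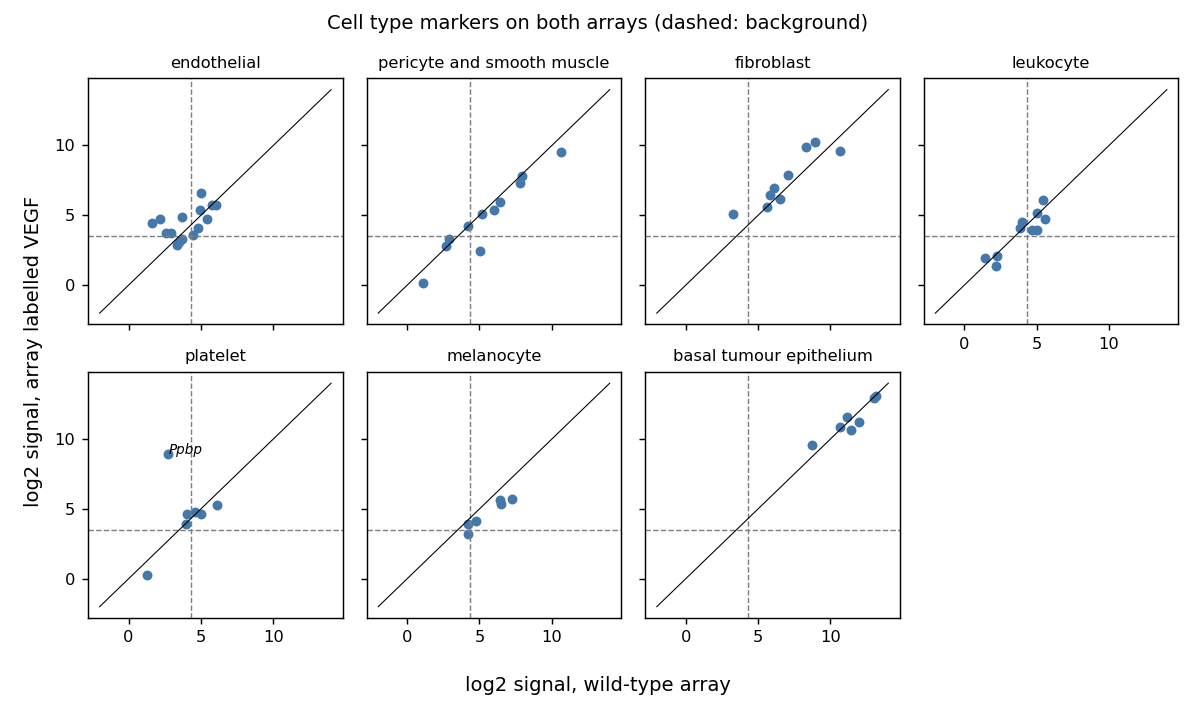
log2 signal of the brightest probe set of each marker gene on the wild-type array (horizontal) and the array labelled VEGF (vertical) for 7 cell types; dashed lines are the background levels and the diagonal marks equal signal. Basal epithelial markers lie far above background near the diagonal, endothelial and leukocyte markers lie on both sides of the background lines, fibroblast collagens lie above the diagonal and Postn below it, and Ppbp stands apart.

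The processing settings moved the regulators unevenly. The other floors, no floor and the stricter filter could not move a ratio, only drop it. The probe sets used lay above these floors on both arrays. Angptl4 was at least 2-fold lower in all 10 alternatives, with log2 ratios between -2.35 and -1.29. Met was at least 2-fold higher in 9 of them, with values between 0.72, a lower bound, and 1.46. Thbs1 ranged from -1.19 to -0.10 and Thbs2 from -0.11 to 1.43, in both cases with the choice of probe set at the far end. Pdgfb stayed below 0 and above -1 throughout, while Pdgfa, Angpt2 and Edn1 lay on both sides of 0.

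**Figure D5:**
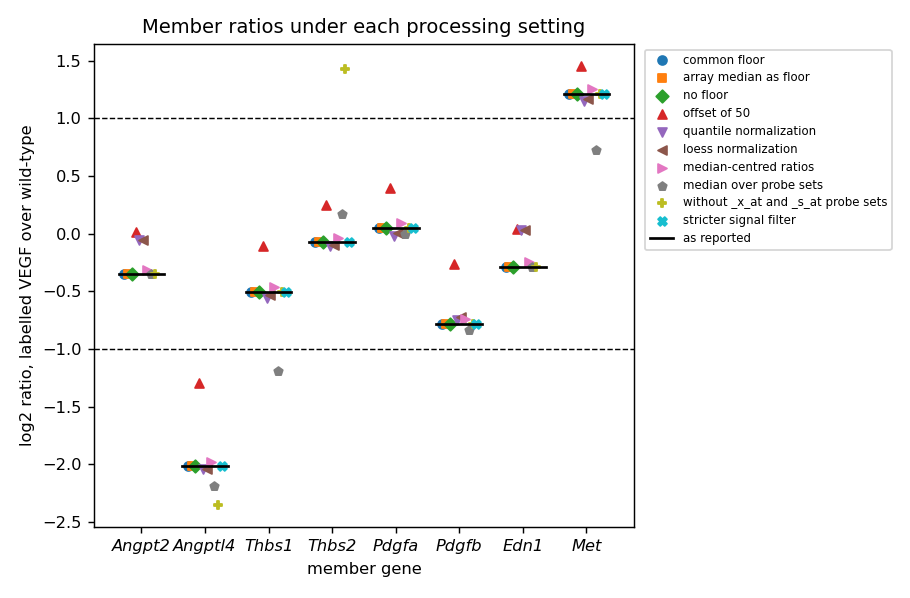
log2 ratio of each measured regulator (labelled VEGF over wild-type) by the brightest probe set as deposited (black bars) and under the 10 alternative settings (symbols); dashed lines mark 2-fold. Angptl4 stays below the lower line, and Thbs1 and Thbs2 cross a line when another probe set is used. Met lies under the upper line only with the median over probe sets, where its value is a lower bound.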

How the data were processed

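Total RNA (100 ng per sample) was amplified with a 3′ kit, per the labels' protocols. The authors deposited log2 values; MAS5, named in the submitters' processing notes, computes a signal per probe set from each array alone. Its version and scaling target were not stated in the labels. On the linear scale the trimmed mean (2% off each end) was 100.04 for both arrays, with medians of 22.6 (wild-type) and 17.3 (labelled VEGF), and 58.3% and 65.2% of named probe sets lay above background. The table held 45101 probe sets. An annotation of 2016 gave 1 gene for 34958, several for 932 and none for 9211, and only the first were used.

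Signals were floored at background, and a gene was represented by its brightest probe set (highest mean of both log2 signals). Bounds under 1-fold were dropped. Single arrays limit the precision. The calculation was tested on simulated data (Python 3.11.15, numpy 2.4.6, pandas 2.3.3, statsmodels 0.14.6). The members and lists were chosen with earlier results of these data known. Named genes were all members, the receptors of their ligands with Lpl, and from each list up to 4 genes 2-fold apart and the brightest. Others (Mst1r, Hgfac, St14, Spint1, Edn2, Adamts1, Sparc, Adgrb1, Thbs3, Thbs4, Comp and single cell markers) were named after their values were seen. Ednra had no single-gene probe set in the annotation and was not analysed here. The 10 alternatives were 4 other floors or offsets, 3 scalings, 2 probe set rules and a stricter signal filter.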

Additional observations from a re-analysis of the deposited data

How the results depend on the processing

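The counts of 1 regulator at least 2-fold higher (Met) and 1 at least 2-fold lower (Angptl4) held in 8 of 10 alternatives. With the median of all probe sets of a gene, 0 were higher and 2 lower, where 3.29% and 8.68% of all genes were. The value of Met, then a lower bound, was under 2-fold, and Thbs1 was past it. Without probe sets ending in _x_at or _s_at, 2 were higher, Met and Thbs2, where 4.06% of all genes were. Of 78 single ratios under an alternative, 71 moved by less than the SD between probe sets, 7 moved further and 0 of the 2-fold ratios changed sign. Many of the 71 could not move. The other floors, no floor and the stricter filter repeat the reported ratio for probe sets this far above background. The offset of 50 follows a scaling that raises the array labelled VEGF by 0.39 (log2) to match the medians. With the offset the median ratio over all genes shifts by 0.14, and that of the bright gene Pdgfa from 0.05 to 0.40. Adding 50 to both signals also shrinks the ratios of dim genes. With both steps the log2 ratio of Apln went from -2.16 to -0.97. Calls of lower genes lost with the offset thus carry the shift and the shrinkage together. Over all genes, those at least 2-fold lower numbered 1041 as reported, 624 with the common floor of 19.8, 596 after quantile and 565 after loess normalization, 323 with the stricter filter and 75 with the offset, and those higher 472, 472, 623, 649, 309 and 470. Angpt1 and Hgf had a value only without a background filter or, for 1 of them, after renormalization, and are not interpreted. No paired analysis was possible because each genotype has 1 array.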

Other observations

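Mmrn2, the gene of an endothelial matrix protein, was higher on the array labelled VEGF by all 4 of its probe sets, with wild-type and VEGF signals of 32.5 and 97.7, 7.38 and 146, 16.9 and 34.4, and 14.4 and 68.7. The log2 ratio of the brightest was 1.59, and the other values with a bound lay between 0.79 and 2.88. Of 10 endothelial markers with a fold or bound it was the 1 higher by 2-fold or more, and 0 were lower by as much. Cdh5, an endothelial cadherin gene, was lower (27.3 and 16.8 by its brighter probe set). This pair was noticed after the values were seen.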
